A study of Mus musculus with 24 samples.

Results

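The 55 genes described here encode proteins that copy DNA in S phase or carry cells through mitosis, and they were listed by symbol and found among the 35727 genes of the deposited count table. They were treated as 23 replication genes (Mcm2 to Rrm2), 29 mitosis genes (Ccna2 to Hmmr) and 3 regulators of the step from G1 into S phase (Ccne1, Ccne2 and E2f1). Their messenger RNA was counted in 24 sequencing libraries of mouse heart cells grown in EGM2 medium, a medium for endothelial cells, with 3 libraries in each of 8 groups. The groups are control, Erg, Sox17 and SEG, each taken at day 3 and day 7. Control cells are labelled as fibroblasts, and the other 3 conditions carry the cell type label iEC and are called aiECs by the submitters. Erg and Sox17 are transcription factors of endothelial cells, and the study asked how far each condition takes on endothelial gene expression. The labels do not spell out SEG, and no source used here gives the way the factors were delivered, the mouse strain or the age. Whether a group's libraries stem from different animals or dishes is also not stated, so a p-value reflects only how far these libraries scatter, and part of that scatter may be technical.

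DNA replication starts when Cdc6 and Cdt1 load the ring of Mcm proteins onto origins, and Cdc45 and the Gins proteins turn that ring into a moving helicase. Polymerases then copy both strands on the sliding clamp Pcna, and ribonucleotide reductase (Rrm1 and Rrm2) with thymidylate synthase (Tyms) supplies the building blocks. Replication genes are known targets of E2F factors at the entry into S phase, while many mitosis genes are switched on later, in G2, through a cell cycle homology region in their promoters that is bound by the DREAM and MuvB-Foxm1 complexes. Both sets fall when cells leave the cycle.

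The promoters of both classes are shown first because they differ in these sequence elements. RefSeq promoter windows on the build GRCm38.p6, from 250 bases before to 50 bases after each gene's start, were at hand for 44 of the 55 genes, namely 19 replication genes, 23 mitosis genes and 2 of the G1/S regulators. An E2F motif (TTTGGCGC, TTTCGCGC, TTTCCCGC or TTTGCCGC, read on both strands) was found in 9 of the 19 replication genes (47.4%), in 1 of the 23 mitosis genes (4.35%) and in 2.6% of all 27025 genes with a window. A cell cycle homology region (TTTGAA or TTCGAA, both strands) was found in 18 of the 23 mitosis genes (78.3%), in 5 of the 19 replication genes (26.3%) and in 21.7% of all genes. The CCAAT box, often found near such elements, was present in 82.6% of the mitosis genes, 68.4% of the replication genes and 41.1% of all genes. When only the 250 bases before the start were read, the cell cycle homology region was found in 9 of the 23 mitosis genes (39.1%, against 19.6% of all genes) and the E2F motif in 6 of the 19 replication genes (31.6%, against 2.16%), so the other matches lie at or after the start. A match of letters describes the sequence and shows no binding.

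The following sites of replication genes show 1 E2F motif each in capitals inside 30 bases of the gene's own strand, 5′ to 3′. They were chosen because these genes carry the results on origin licensing, the helicase, the primase-polymerase and the clamp loader, and because their windows hold the motif. The Mcm5 and Rfc3 sites each hold another E2F motif, in lower case before the one in capitals, and in Mcm5 the pair overlap.
Mcm3: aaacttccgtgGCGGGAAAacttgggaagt (chr1:20820275-20820304, minus strand)
Mcm5: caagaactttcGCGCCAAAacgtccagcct (chr8:75109349-75109378, plus strand)
Mcm6: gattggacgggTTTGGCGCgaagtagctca (chr1:128359734-128359763, minus strand)
Mcm7: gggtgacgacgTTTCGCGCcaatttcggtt (chr5:138171849-138171878, minus strand)
Cdc6: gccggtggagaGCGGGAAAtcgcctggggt (chr11:98908002-98908031, plus strand)
Cdt1: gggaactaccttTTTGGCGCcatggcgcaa (chr8:122568035-122568064, plus strand)
Pola1: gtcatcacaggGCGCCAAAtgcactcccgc (chrX:93632275-93632304, minus strand)
Rfc3: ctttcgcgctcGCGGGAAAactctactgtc (chr5:151651190-151651219, minus strand)
The Mcm6 site is part of a longer stretch with 3 motifs, of which the first pair overlap on opposite strands. The 120 bases before the start of Mcm6 (chr1:128359706-128359825, minus strand) show them in capitals.
Mcm6: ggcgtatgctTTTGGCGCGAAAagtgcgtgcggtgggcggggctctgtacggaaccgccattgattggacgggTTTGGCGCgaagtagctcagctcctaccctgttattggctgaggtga

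The following mitosis genes were chosen because the results turn on them and their windows hold a cell cycle homology region, in capitals in these 30-base sites. The windows of Ccnb1 and Cenpe hold the CCAAT box alone of the motifs searched, and that of Birc5 holds none of the 3. The Anln site holds another homology region, in lower case after the one in capitals.
Ccnb2: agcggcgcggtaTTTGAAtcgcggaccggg (chr9:70421533-70421562, minus strand)
Cdk1: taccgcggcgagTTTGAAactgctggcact (chr10:69352910-69352939, minus strand)
Cdc20: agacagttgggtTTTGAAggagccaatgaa (chr4:118437344-118437373, minus strand)
Top2a: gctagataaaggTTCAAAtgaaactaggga (chr11:99024195-99024224, minus strand)
Bub1b: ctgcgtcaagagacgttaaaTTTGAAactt (chr2:118598231-118598260, plus strand)
Aurka: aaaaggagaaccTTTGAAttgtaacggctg (chr2:172370521-172370550, minus strand)
Plk1: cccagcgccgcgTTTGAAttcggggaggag (chr7:122159453-122159482, plus strand)
Anln: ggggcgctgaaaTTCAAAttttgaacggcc (chr9:22389168-22389197, minus strand)
Ube2c: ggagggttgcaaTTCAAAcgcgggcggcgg (chr2:164769888-164769917, plus strand)
Mki67 has 2 such elements farther upstream, in capitals in the 120 bases before its start (chr7:135716380-135716499, minus strand).
Mki67: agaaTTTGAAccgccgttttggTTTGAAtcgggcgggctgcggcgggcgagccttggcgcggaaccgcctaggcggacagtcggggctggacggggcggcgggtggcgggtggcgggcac

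Total counts per library ran from 18794422 to 44586227. Sox17 had 9650 to 57284 counts in the Sox17 and SEG libraries and 0 to 9 in the others, and Erg had 17489 to 247287 counts in the Erg and SEG libraries and 0 to 3 in the others. Levels are given as CPM, the count of a gene scaled to a common library total after TMM, and each of the 55 genes passed the filter on low counts, with between 16 and 8816 counts in a library. As a check of the label iEC, 10 endothelial markers summed to 20.2 to 31.2 CPM in control, 157 to 202 CPM with Erg, 157 to 626 CPM with Sox17 and 1440 to 2360 CPM with SEG, with Cldn5 at 0 counts in control and Sox17. By the test described below, 7 of them were higher and 1 lower than control with Erg at each day. With Sox17 it was 6 and 1 at each day, and with SEG 9 and 0. Of all genes 20.0% to 29.5% were higher and 19.6% to 25.0% lower in these comparisons. The sum of 10 fibroblast markers was 25800 to 35400 CPM in control and 21900 to 23700 CPM with the 3 factor conditions at day 3, and at day 7 it was 12700 to 13700 CPM with Erg, 14600 to 15400 CPM with Sox17 and 24600 to 25500 CPM with SEG. Col1a1 alone gave 10300 to 10900 CPM of the SEG sum at day 7, against 7500 to 7970 CPM in control then. The sum can thus hide falls in less abundant markers. Replicate 1 of Sox17 at day 7 and replicate 1 of SEG at day 7 stood apart from their partner libraries. Ribosomal protein genes took 8.5% of the counts in the Sox17 library, against at most 5.26% in the 22 libraries other than this pair. Sox17 itself read 616 CPM in replicate 1 and 1303 and 1322 CPM in replicates 2 and 3 of Sox17 at day 7. With SEG at day 7 it read 461 CPM in replicate 1 and 819 and 816 CPM in replicates 2 and 3.

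In each library of this pair the deviation of a gene from its 2 partner libraries moved with exon length. Across the 55 genes Spearman's rho was −0.577 in the Sox17 library and −0.587 in the SEG library, as a description over genes of the same library with no test. Over 14763 genes of all kinds the values were −0.599 and −0.563. The trend was not particular to the pair. Across the 55 genes rho was −0.543 in replicate 3 and 0.507 in replicate 1 of Sox17 at day 3, and −0.462 in replicate 2 of SEG at day 3. In mitosis genes the median absolute log2 deviation was 0.528 and 0.334 in the pair. It was 0.107, 0.0916 and 0.0781 in those day 3 libraries, and 0.302 in replicate 1 of control at day 7. Anln, a long-transcript gene for a cytokinesis scaffold, read 45.4 CPM in replicate 1 of Sox17 at day 7 and 114 and 131 CPM in the others. Lig1, the ligase that seals new DNA, went the other way with 49.8 against 26.0 and 27.6 CPM. Its exon length is 3517 bases against 4605 for Anln, so Lig1 is not a short-transcript case. Counts of replication and mitosis genes that change by over 1.5 times without the pair are given both ways, and those of the regulators are given with the regulators.

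**Figure D1:**
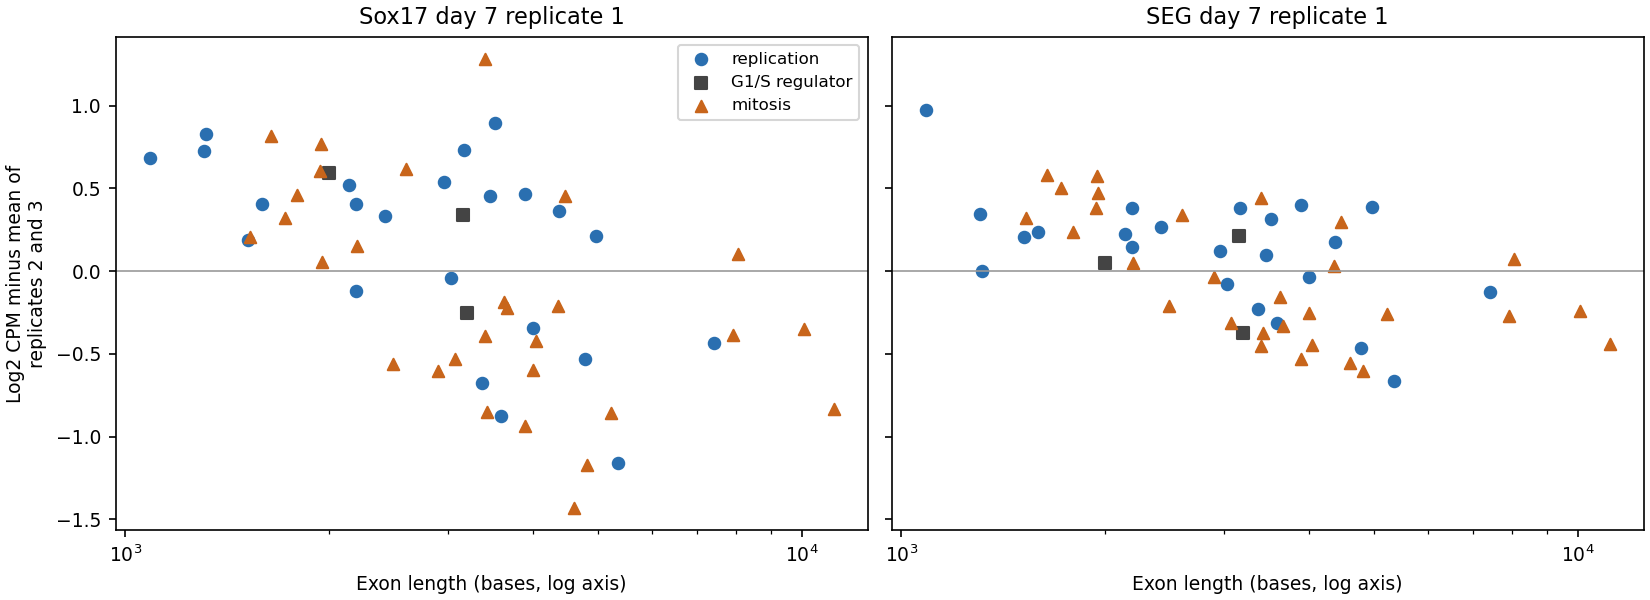
Each point is one of the 55 genes, in replicate 1 of Sox17 at day 7 (left) and replicate 1 of SEG at day 7 (right). The horizontal axis is exon length on a log scale and the vertical axis is the log2 CPM of that library minus the mean of replicates 2 and 3; long genes lie mostly below 0 and short genes mostly above it (Spearman's rho −0.577 and −0.587).

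Per kilobase of exon, Pcna had the highest mean level of the 55 genes in 7 of the 8 groups, from 32.7 CPM per kb in control at day 7 to 85.8 CPM per kb with Erg at day 3. The exception was SEG at day 3, where Cdc20, the activator of the anaphase-promoting complex, stood first with 54.4 CPM per kb against 51.9 for Pcna. Rrm1, the large subunit of ribonucleotide reductase, was among the first 3 in each of the 8 groups. Mcm10 and Cdc6 held the lowest places, with Mcm10 at 0.372 CPM per kb in control at day 7.

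Summed over the class, the level of the replication genes was 1042 ± 14.2 CPM (SD, n = 3) in control at day 3 and 386 ± 20.5 CPM (SD, n = 3) at day 7. With Erg the sum was 728 ± 7.08 CPM (SD, n = 3) at day 3 and 621 ± 15.3 CPM (SD, n = 3) at day 7, with Sox17 1013 ± 12 CPM (SD, n = 3) and 824 ± 24.6 CPM (SD, n = 3), and with SEG 794 ± 9.24 CPM (SD, n = 3) and 471 ± 15.6 CPM (SD, n = 3). Control was thus the highest group at day 3 and the lowest at day 7. These are bulk samples, so fewer cycling cells and less of these transcripts in each cell cannot be told apart.

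The sum of the mitosis genes spread further. It was 1479 ± 28.6 CPM (SD, n = 3) in control at day 3 and 355 ± 45 CPM (SD, n = 3) at day 7, and 489 ± 19.4 CPM (SD, n = 3) and 466 ± 15.2 CPM (SD, n = 3) with Erg. Sox17 had 1335 ± 47.8 CPM (SD, n = 3) and 902 ± 94.2 CPM (SD, n = 3), and SEG had 1126 ± 27.1 CPM (SD, n = 3) and 498 ± 20.8 CPM (SD, n = 3). Erg at day 3 had 0.33 times the control level in mitosis genes and 0.699 times in replication genes. The mitosis sum over the replication sum was accordingly 0.644 to 0.689 with Erg at day 3, below the 1.25 to 1.43 of the other 9 libraries of that day, and at 0.707 to 0.788 with Erg at day 7 it was again below the 0.854 to 1.19 of the other groups. These ratios of summed levels are given without a test.

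**Figure D2:**
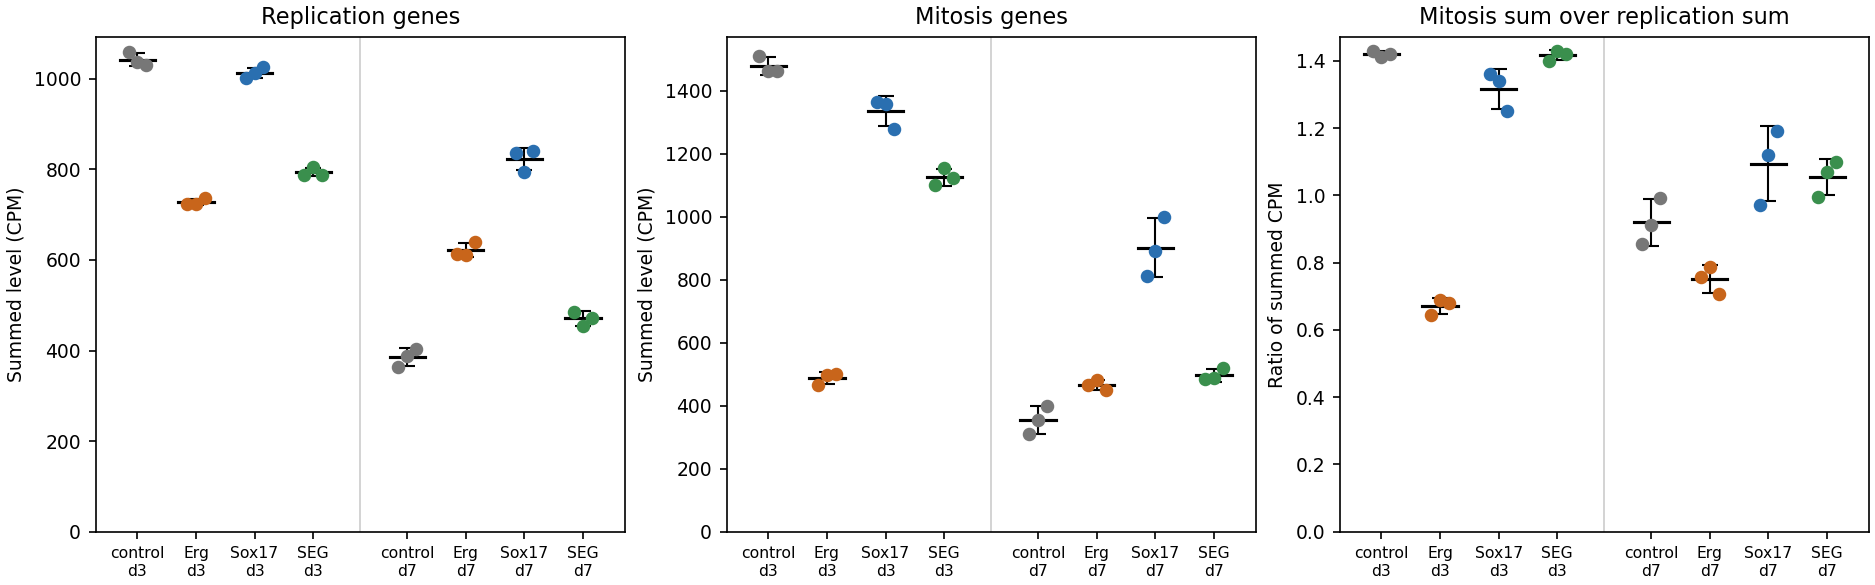
Summed CPM of the 23 replication genes (left) and the 29 mitosis genes (middle), and the ratio of the sums (right), by group; points are single libraries, the bar is the mean and the whisker the SD over 3 libraries. Control libraries are highest at day 3 (replication 1031 to 1058 CPM) and lowest at day 7 (364 to 404 CPM), and the Erg libraries have the lowest ratio at both days.

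The change from day 3 to day 7 was largest in the control cells. All 23 replication genes, all 29 mitosis genes and the 3 regulators fell by edgeR's quasi-likelihood test with Benjamini-Hochberg adjusted p under 0.05, which is what a rise or fall means below; 13.4% of the 14804 genes tested fell and 16.1% rose. The median log2 change was −1.48 for replication and −2.10 for mitosis genes, against 0.03 over all genes. Ccna2, the cyclin of S phase and early mitosis, read 72.3, 63.7 and 65.5 CPM in the day 3 control libraries and 10.2, 11.8 and 14.2 CPM at day 7 (log2 change −2.48 ± 0.11 SE, edgeR adjusted p = 3.62e-12). Rrm2, the subunit of ribonucleotide reductase that limits nucleotide supply, read 93.5, 92.8 and 96.1 CPM and then 18.4, 18.4 and 18.8 CPM (log2 change −2.35 ± 0.07 SE, edgeR adjusted p = 6.86e-14). The libraries of the 2 days did not overlap for either gene, and Mcm10 (−2.43), Mcm5 (−2.27), Mki67 (−2.39) and Ccnb1 (−2.39) fell by similar amounts. The smallest falls among replication genes were those of Rfc4 (−0.90), Rfc3 and Gins2 (both −0.92).

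With SEG, 22 of 23 replication genes and all 29 mitosis genes fell between the days (12.9% of all genes fell and 14.3% rose), with medians of −0.76 and −1.19. Gins1 was the one replication gene that did not pass (log2 change −0.76 ± 0.28 SE, edgeR adjusted p = 0.0548). Kif20a, a kinesin of cytokinesis, fell furthest among the mitosis genes (−1.49), followed by Ccnb1 and the centromeric histone gene Cenpa (both −1.46). Cdc6, which recruits the helicase ring, fell furthest among the replication genes: it read 7.67, 7.05 and 7.07 CPM at day 3 and 1.96, 2.87 and 2.61 CPM at day 7 (log2 change −1.54 ± 0.20 SE, edgeR adjusted p = 6.77e-06), with no overlap. Mcm10 (−1.40) and Pole, the leading-strand polymerase (−1.37), came next.

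With Sox17, 22 of 29 mitosis genes and 8 of 23 replication genes fell (12.9% of all genes fell and 16.6% rose), with medians of −0.56 and −0.28. Bub1, a checkpoint kinase (−0.88), Kif20a (−0.87) and Hmmr, a spindle protein (−0.86), fell furthest in mitosis, and Pole (−0.57), Mcm10 (−0.55) and Rrm1 (−0.55) in replication. The Sox17 count leans on the libraries used: without both outlying day 7 libraries, 16 replication genes fell and 1 rose, without replicate 1 of Sox17 at day 7 alone 13 were called, and without replicate 3 of Sox17 at day 3 the count was 5. A fit of only the 6 Sox17 libraries called 0 replication genes (4 at an unadjusted p under 0.05) and 3 mitosis genes, with none of the 6 genes just named among them, where DESeq2 on all libraries called 9 and 22.

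With Erg, the mitosis genes showed no call in either direction between the days by edgeR (0 of 29, with 2 at an unadjusted p under 0.05, and 1 by DESeq2), while 14.4% of all genes fell and 15.6% rose. The median was −0.03. Mki67, a marker of cycling cells, read 18.9, 25.2 and 28 CPM at day 3 and 18.3, 22.9 and 14.5 CPM at day 7 (log2 change −0.38 ± 0.18 SE, edgeR adjusted p = 0.131), with overlapping libraries. Of the replication genes 7 fell, with the largest falls in Cdt1 (−0.68), Mcm2 (−0.45) and Mcm3 (−0.41); Mcm2 was no longer called without replicate 3 of Erg at day 7 (adjusted p = 0.0525 by edgeR). Rfc3, a subunit of the loader that puts Pcna on DNA, rose, from 7.06, 9.13 and 8.34 CPM to 14.7, 12.3 and 14.2 CPM (log2 change 0.75 ± 0.18 SE, edgeR adjusted p = 0.00297); it was the 1 member of the 55 that rose between the days in any condition. Without both outlying libraries, which are not Erg libraries but share in the estimate of the spread, 12 replication genes fell and 1 rose, and 3 mitosis genes fell and 1 rose; without replicate 2 of Erg at day 7, 2 mitosis genes were called.

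Markers of other cell types moved between the same days. Of 13 macrophage markers all 13 rose with Erg (median log2 change 2.35), against 8 in control (0.88), 8 with Sox17 (0.98) and 10 with SEG (1.52), and none fell. Of the 10 fibroblast markers 5 fell and 1 rose with Erg, 4 fell and 3 rose in control, 6 fell and 1 rose with Sox17, and 3 fell and 2 rose with SEG. Of all genes 12.9% to 14.4% fell and 14.3% to 16.6% rose between the days across the conditions. The part of these markers in the changes between the days was not tested.

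**Figure D3:**
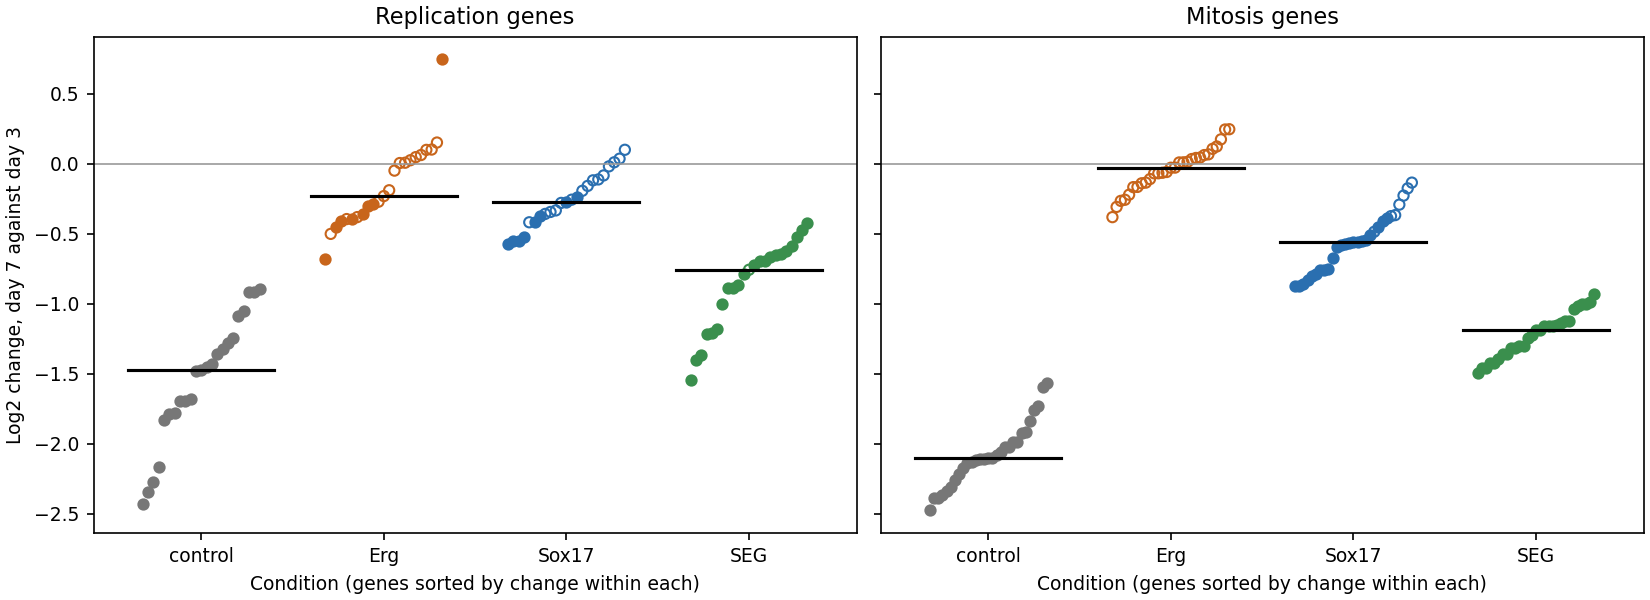
Log2 change from day 3 to day 7 in each condition for the 23 replication genes (left) and the 29 mitosis genes (right), sorted within a condition; filled points passed edgeR's test at an adjusted p under 0.05, open points did not, and the black bar is the median. Control falls furthest (medians −1.48 and −2.10) and the Erg mitosis genes lie around 0 (median −0.03).

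At day 3, both classes were lower with Erg than in control. All 29 mitosis genes and 19 of 23 replication genes were lower, where 23.5% of all genes were lower and 22.6% higher, and the medians were −1.60 and −0.74 against −0.01 over all genes. Among mitosis genes Ccna2 read 18.9, 19.7 and 18.3 CPM with Erg against 72.3, 63.7 and 65.5 in control (log2 change −1.82 ± 0.11 SE, edgeR adjusted p = 4e-11). Cenpf, a kinetochore protein, read 9.77, 10.5 and 12 against 37.9, 40.0 and 38.8 CPM (log2 change −1.85 ± 0.21 SE, edgeR adjusted p = 3.4e-07). The ranges were far apart in both. Anln (−1.92) and Bub1 (−1.89) fell furthest, and the smallest mitotic change was that of Mad2l1, a spindle checkpoint protein (−1.08).

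The other cyclins and kinases of mitosis fell alike. Ccnb1, the partner of Cdk1 at mitotic entry, read 24.6, 23.2 and 23.7 CPM with Erg and 72.8, 68 and 71.4 in control (−1.57). Cdk1 read 20.5, 23.5 and 22 and 59.7, 63.5 and 63.3 CPM (−1.5). Plk1, the kinase of spindle assembly, read 18.1, 18.1 and 16.9 and 61.1, 59 and 63.2 CPM (−1.79). No Erg library reached the lowest control library in any of the 3 genes. Aurkb, the kinase of the chromosomal passenger complex, read 9.77, 9.42 and 9.61 and 26.6, 26.2 and 27.8 CPM (−1.48). Its partner Birc5 read 8.75, 9.03 and 9.64 and 27.7, 26.5 and 29.5 CPM (−1.61). Top2a, the topoisomerase that untangles chromosomes, read 41.1, 45.3 and 45 and 136, 136 and 124 CPM (−1.59). Their log2 falls lie within the range of the class, which ran from −1.92 to −1.08.

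Replication genes with Erg at day 3 were less uniform. Mcm5, a subunit of the helicase ring, read 26.3, 24.1 and 25.4 CPM against 42.4, 45.8 and 48.1 in control (log2 change −0.85 ± 0.12 SE, edgeR adjusted p = 4.97e-06). Tyms, which makes thymidylate, read 13.8, 13.9 and 12.8 against 38, 36.8 and 33.3 CPM (log2 change −1.42 ± 0.16 SE, edgeR adjusted p = 4.11e-07). Both fell without overlap, as did Pola1, the catalytic subunit of the priming polymerase (−1.44), Mcm10 (−1.37) and Rrm2 (−1.24). Pcna went the other way, with 128, 126 and 137 CPM against 99.2, 105 and 104 (log2 change 0.34 ± 0.08 SE, edgeR adjusted p = 0.00104). Mcm3 was also higher, with 76.4, 82.4 and 76.8 CPM against 65.1, 66.8 and 70.1 (log2 change 0.22 ± 0.07 SE, edgeR adjusted p = 0.0147), a call lost without replicate 1 of control (edgeR adjusted p = 0.0604) or replicate 2 of Erg (edgeR adjusted p = 0.0558). Within the helicase ring the changes ran from −1.06 for Mcm6 to 0.22 for Mcm3. Cdt1 (log2 change −0.21 ± 0.15 SE, edgeR adjusted p = 0.259) and Rfc3 (log2 change −0.44 ± 0.18 SE, edgeR adjusted p = 0.0516) did not pass the test.

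At day 7 the same comparison ran upwards. With Erg 19 of 23 replication genes and 18 of 29 mitosis genes were higher than in control, where 23.7% of all genes were higher and 24.8% lower, with medians of 0.71 and 0.42 against −0.02 over all genes. Rfc3 (1.23), Cdc45 (1.21) and Pcna (1.20) rose furthest in replication. Pcna read 107, 108 and 128 CPM with Erg and 49.4, 48.6 and 50.7 CPM in control (log2 change 1.20 ± 0.08 SE, edgeR adjusted p = 1.67e-10), with no overlap. Pbk, a mitotic kinase (1.11), Aurka (0.93) and Ttk (0.85) rose furthest in mitosis. Mki67 (log2 change 0.30 ± 0.19 SE, edgeR adjusted p = 0.197) and Top2a (log2 change 0.37 ± 0.17 SE, edgeR adjusted p = 0.0819) did not pass, and their libraries with Erg reached into the control range. Of the genes called at both days, 15 replication and 18 mitosis genes were lower at day 3 and higher at day 7, and Mcm3 and Pcna were higher at both.

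Macrophage markers moved with the Erg comparison at day 7: 12 of 13 were higher with Erg and 1 was lower, with a median log2 change of 2.35, and their summed level was 836 to 870 CPM with Erg against 164 to 212 CPM in control and 160 to 311 CPM with Sox17 or SEG. At day 3 the sum was 191 to 205 CPM with Erg and 132 to 133 CPM in control. None of the 13 markers was at 0 counts in any group. Over all genes 23.7% were higher and 24.8% lower with Erg at day 7. Of the 10 fibroblast markers 8 were lower with Erg at day 7 and none higher (median −1.14). The part of these cells in the day 7 result was not tested.

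**Figure D4:**
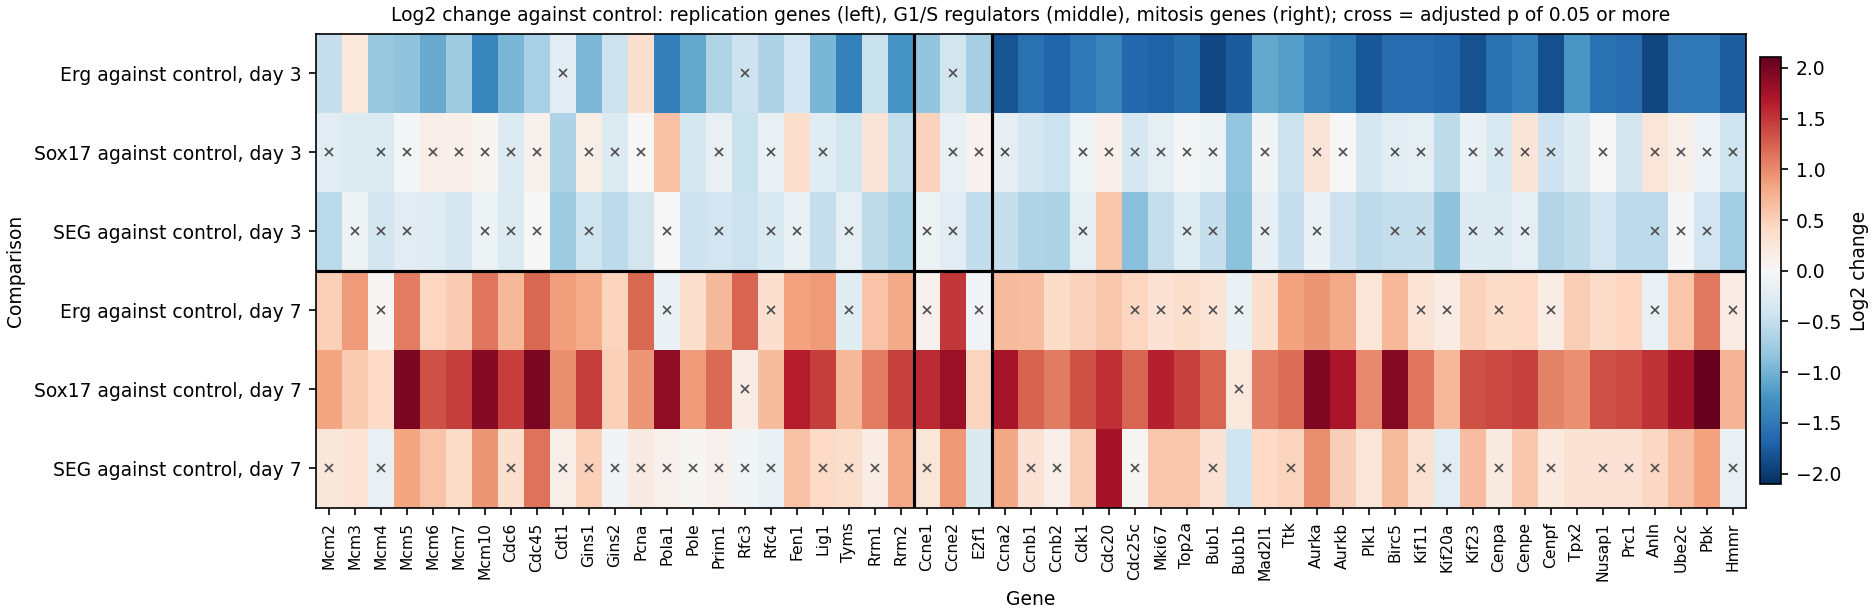
Fitted log2 change against control of each of the 55 genes (columns) for Erg, Sox17 and SEG at day 3 (upper 3 rows) and day 7 (lower 3 rows); blue is lower and red higher than control, and a cross marks an adjusted p of 0.05 or more. The upper row of Erg at day 3 is blue in all 29 mitosis genes, and the Sox17 row at day 7 is red throughout, with crosses only at Rfc3 and Bub1b.

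With Sox17 at day 3 most of the 55 genes stayed near control. Of the replication genes 6 were lower and 3 higher, and of the mitosis genes 8 were lower, where 19.6% of all genes were lower and 20.8% higher; the medians were −0.16 and −0.20. The replication median was −0.26 without replicate 3 of control at day 3. Each fit that leaves out 1 library of the comparison called 6 replication genes, against 9 in the main fit. The lower call of Rfc3 was lost in each of them. Cdt1, the licensing factor, read 12.7, 14.6 and 15.7 CPM against 23.1, 22.7 and 21.3 in control (log2 change −0.65 ± 0.15 SE, edgeR adjusted p = 0.00148). Bub1b, a spindle checkpoint kinase, read 20.7, 21 and 20.9 against 33.4, 38.9 and 37.3 CPM (log2 change −0.81 ± 0.12 SE, edgeR adjusted p = 1.39e-05). The libraries did not overlap in either. Pola1 (0.61), Fen1, the flap nuclease of Okazaki fragments (0.37), and Rrm1 (0.27) were the higher ones, where Pola1 was not called in 5 of the 6 fits that leave out 1 library of the comparison (edgeR adjusted p from 0.0561 without replicate 2 of Sox17 to 0.161 without replicate 1), and Rrm2 (−0.50), Kif20a (−0.53) and Ccnb2 (−0.46) were lower. A fit of only the groups compared gave 3 higher and 11 lower replication genes and 3 higher and 14 lower mitosis genes; leaving out both outlying day 7 libraries gave 3 and 14 for mitosis, and leaving out 1 library of the comparison gave 5 to 7 mitosis genes, with 5 without replicate 1 or 3 of control or replicate 1 or 2 of Sox17.

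At day 7 Sox17 stood above control in nearly the whole set. Higher were 22 of 23 replication genes and 28 of 29 mitosis genes, where 29.5% of all genes were higher and 25.0% lower, with medians of 1.19 and 1.34 against 0.05 over all genes. Mcm5 read 45.4, 31.8 and 34.4 CPM with Sox17 and 8.33, 9.64 and 10.2 in control (log2 change 1.98 ± 0.12 SE, edgeR adjusted p = 3.25e-11). Mki67 read 39.6, 47.1 and 54.1 and 11.5, 15.1 and 18.4 CPM (log2 change 1.64 ± 0.19 SE, edgeR adjusted p = 3.43e-07). The lowest Sox17 library was above the highest control library in both genes, replicate 1 included. Cdc45 (1.98), Mcm10 (1.92), Pbk (2.10), Aurka (1.97) and Birc5 (1.93) rose as far. Rfc3 (log2 change 0.16 ± 0.18 SE, edgeR adjusted p = 0.456) and Bub1b (log2 change 0.21 ± 0.12 SE, edgeR adjusted p = 0.147) did not pass. Birc5 shows the spread that replicate 1 adds, with 34.4, 13.3 and 14.9 CPM in the Sox17 libraries and 5.16, 5.27 and 6.05 in control. Of the 10 fibroblast markers 8 were lower with Sox17 at day 7 and 1 higher (median −2.22). Among 9 mural and smooth muscle markers, 5 were higher and 2 lower (median 1.95). Their sum was 2840 to 4630 CPM with Sox17 and 923 to 1010 CPM in control. The part of the fibroblast and mural markers in this result was not tested.

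In summed level SEG at day 3 lay between control and Erg. Of the replication genes 11 of 23 were lower than in control, and of the mitosis genes 15 of 29 were lower and 1 higher, where 20.2% of all genes were lower and 20.0% higher; the medians were −0.38 and −0.49. Cdt1 read 14, 13.5 and 12.3 CPM against 23.1, 22.7 and 21.3 (log2 change −0.75 ± 0.15 SE, edgeR adjusted p = 0.000377). Mcm2, a subunit of the helicase ring, read 42.4, 43.2 and 49.6 against 69.5, 65.8 and 64.2 CPM (log2 change −0.56 ± 0.13 SE, edgeR adjusted p = 0.00138). Rrm2 fell between them in size (−0.66). Cdc25c (−0.88), Bub1b (−0.86) and Kif20a (−0.84) fell furthest in mitosis. A fit of only the groups compared called 18 replication and 27 mitosis genes, the latter 26 lower, and leaving out both outlying libraries left 24 mitosis genes lower and 1 higher. Without replicate 1 of control or replicate 3 of SEG the replication count was 7.

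At day 7 SEG was above control in part of the set, with 8 of 23 replication genes and 15 of 29 mitosis genes higher and 1 mitosis gene lower, where 22.5% of all genes were higher and 21.8% lower; the medians were 0.29 and 0.42. Cdc45, which activates the helicase, read 7.17, 6.40 and 5.87 CPM against 2.67, 2.82 and 3.30 (log2 change 1.14 ± 0.17 SE, edgeR adjusted p = 1.12e-05), with no overlap. Rrm2 read 34.3, 29.2 and 32.9 against 18.4, 18.4 and 18.8 CPM (log2 change 0.79 ± 0.07 SE, edgeR adjusted p = 1.25e-08), with no overlap. Mcm10 (0.92) and Mcm5 (0.83) followed in replication, and Aurka (0.97) and Pbk (0.84) came after Cdc20 in mitosis. Cdc6 did not pass (log2 change 0.34 ± 0.22 SE, edgeR adjusted p = 0.225). Without both outlying libraries 15 replication genes were higher. Of the 10 fibroblast markers 7 were lower with SEG at day 7 and 2 higher (median −1.32). Among the 9 mural and smooth muscle markers, 7 were higher and 2 lower (median 3.52). The part of these markers in this result was not tested. The 3 factor conditions share the control libraries of each day, so their effects are set side by side and not correlated.

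Cdc20 went against its class with SEG at day 3, and at day 7, when 15 of the 29 mitosis genes were higher with SEG, its rise was the largest of them. It read 92.9, 108 and 92.2 CPM with SEG at day 3 against 63.6, 67.1 and 65.7 in control (log2 change 0.58 ± 0.12 SE, edgeR adjusted p = 0.000662). At day 7 it read 56.9, 48.5 and 48.1 against 13.2, 16.3 and 16.2 CPM (log2 change 1.75 ± 0.13 SE, edgeR adjusted p = 5.41e-10). The SEG libraries were above every control library at both days, and at day 3 also above every Sox17 library (65, 68.4 and 77.2 CPM; log2 change 0.48 ± 0.12 SE, edgeR adjusted p = 0.00496). With Erg it read 24.6, 24.1 and 26.3 and 21.4, 23.6 and 23 CPM, lower than SEG by 1.97 and 1.17 on the log2 scale. Between SEG and Sox17 at day 7 the Cdc20 difference did not pass the test (log2 change 0.22 ± 0.12 SE, edgeR adjusted p = 0.168).

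Bub1b went against its class with SEG at day 7. At day 7 it read 12.1, 12.9 and 12 CPM in control, 10.4, 11.1 and 12 with Erg, 12.8, 13.6 and 16.6 with Sox17 and 7.79, 8.49 and 11.4 with SEG. It was lower with SEG than in control (log2 change −0.41 ± 0.12 SE, edgeR adjusted p = 0.0104), a call that was lost without both outlying day 7 libraries (log2 change −0.27, edgeR adjusted p = 0.0523), without replicate 1 or 2 of SEG (edgeR adjusted p = 0.0973 and 0.0513) and in a fit of only these groups (0.0617). All 3 factor conditions had it lower than control at day 3 (−1.75 with Erg, −0.81 with Sox17 and −0.86 with SEG).

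**Figure D5:**
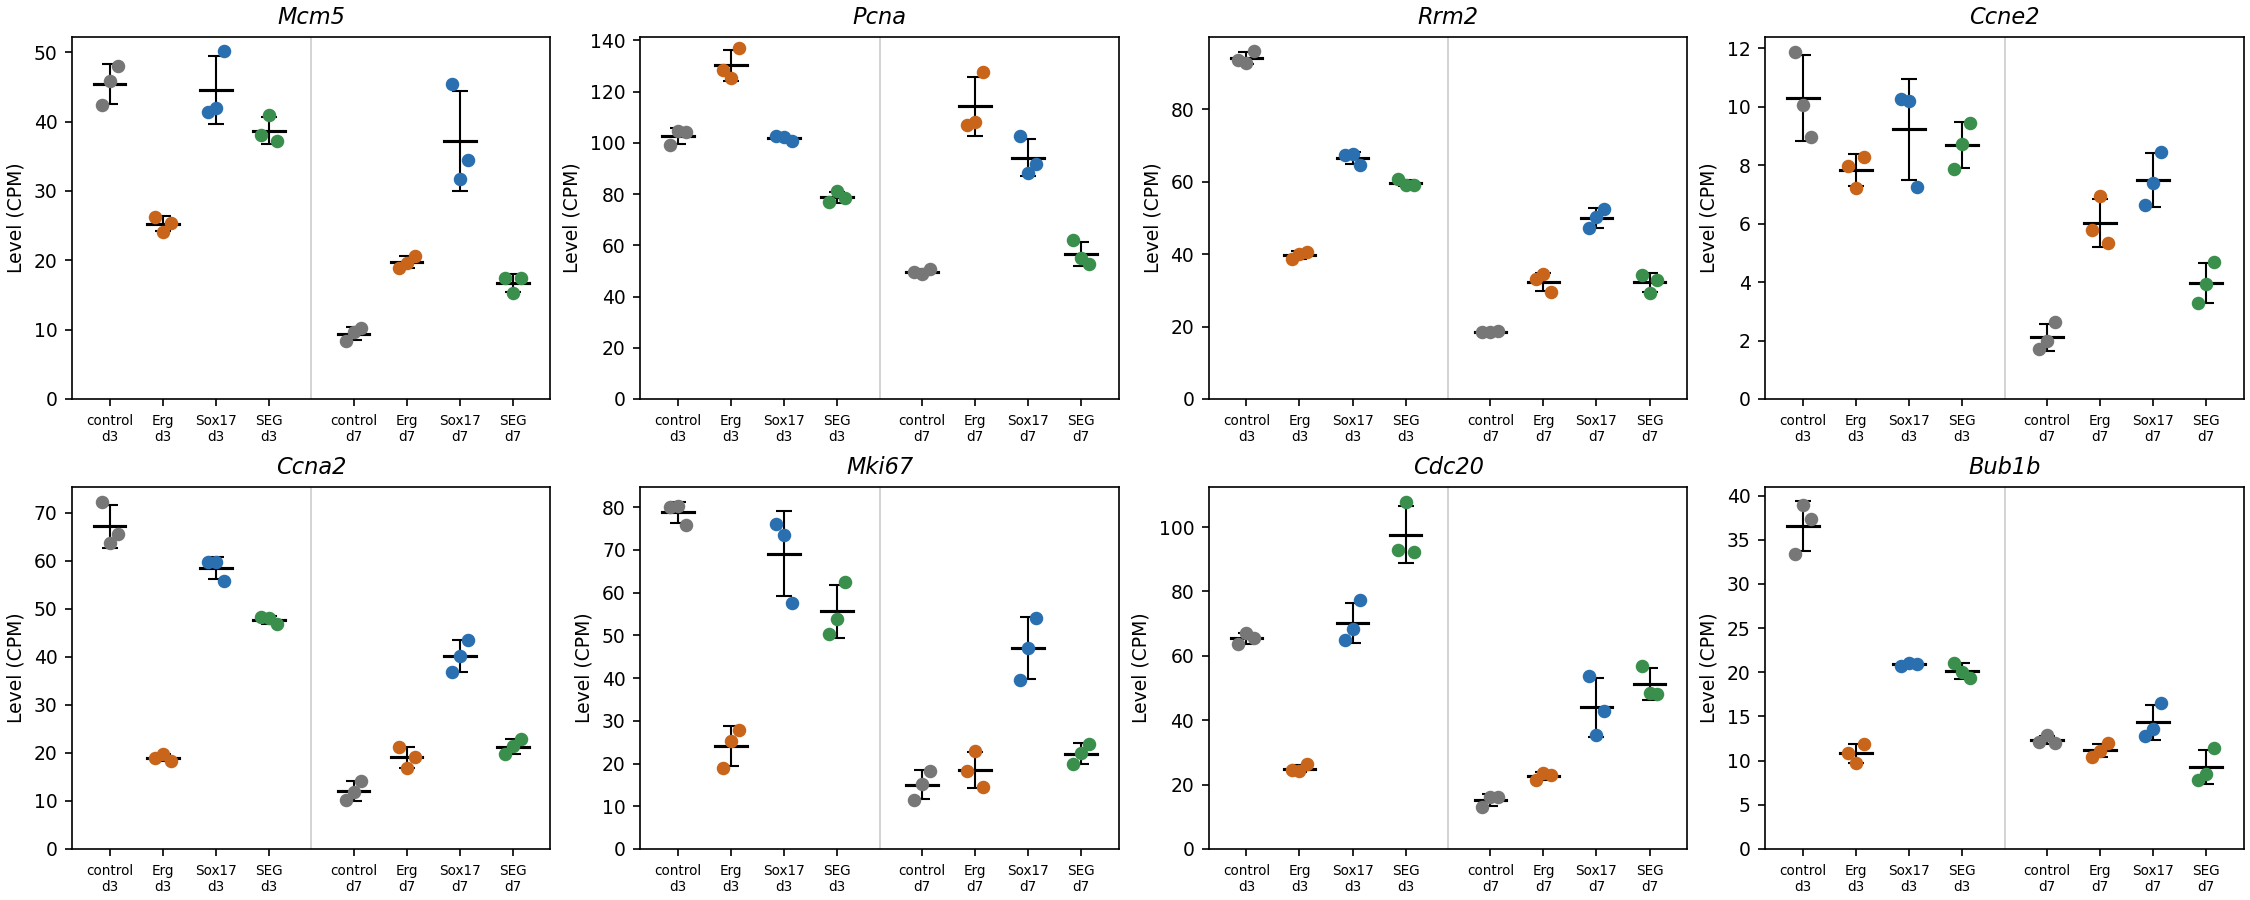
CPM of 8 of the genes in every library by group, with the mean as a bar and the SD over 3 libraries as a whisker; each panel has its own axis from 0. Cdc20 is highest with SEG at day 3 (92.2 to 108 CPM), Pcna with Erg at day 3 (126 to 137 CPM), and the other 6 genes have their highest mean in control at day 3.

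The change of each condition's effect between the days, tested as an interaction, was upwards in every called member. For Erg all 23 replication and all 29 mitosis genes were called, where 9.34% of all genes changed upwards and 10.4% downwards, with medians of 1.29 and 2.0. For Sox17 it was 21 and 29, with 7.61% of all genes upwards and 6.66% downwards, and medians of 1.26 and 1.48. For SEG it was 13 and 19, with 6.09% and 5.77%, and medians of 0.69 and 0.84. Each of these effects is taken against the same control libraries, in which the 55 genes fell between the days. Pbk had the largest change for Erg (log2 change 2.61 ± 0.25 SE, edgeR adjusted p = 3.36e-07) and for Sox17 (log2 change 2.23 ± 0.24 SE, edgeR adjusted p = 2.63e-06), and Rrm2 for SEG (log2 change 1.45 ± 0.10 SE, edgeR adjusted p = 4.49e-09). Pola1 changed with Erg (1.29) and Sox17 (1.26) but not detectably with SEG (log2 change 0.10 ± 0.32 SE, edgeR adjusted p = 0.93).

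SEG was then set against each single factor. The transcripts of the factors themselves differed in these comparisons. Erg read 1254 to 1281 CPM with SEG and 7039 to 7133 CPM with Erg at day 3, and 836 to 1039 and 4327 to 5809 CPM at day 7. Sox17 read 955 to 1054 CPM with SEG and 1549 to 1653 CPM with Sox17 at day 3, and 461 to 819 and 616 to 1322 CPM at day 7. The part of these levels in the comparisons was not tested. At day 3, SEG had all 29 mitosis genes higher than Erg, and 12 replication genes higher and 3 lower, where 25.7% of all genes were higher and 25.3% lower; the medians were 1.17 and 0.41. Kif23, a kinesin of the central spindle (1.57), and Ube2c, the ubiquitin enzyme of the anaphase-promoting complex (1.47), differed most after Cdc20. Pola1 (1.43), Mcm10 (1.26) and Tyms (1.23) were higher with SEG, while Pcna (−0.73), Cdt1 (−0.54) and Mcm3 (−0.32) were lower. At day 7 the 2 conditions were closer in mitosis genes, with 2 higher and 3 lower with SEG and a median of 0.00, and 1 replication gene was higher and 10 lower, where 24.7% of all genes were higher and 24.8% lower. Of the 13 macrophage markers 12 were lower with SEG than with Erg at day 7 (median −2.02), and of the 10 fibroblast markers 6 were lower and 4 higher; their part in this comparison was not tested. Rfc3 (−1.29), Pcna (−1.01) and Cdt1 (−0.75) were lower with SEG, as were the mitosis genes Kif20a (−0.38), Ccnb1 (−0.35) and Ccnb2 (−0.27), and Tyms (0.63) was higher. Each of the 3 mitosis calls was lost in some fits that leave out 1 library, with edgeR adjusted p up to 0.122 for Kif20a (without replicate 2 of Erg), 0.0704 for Ccnb1 (without replicate 1 of SEG) and 0.208 for Ccnb2 (without replicate 2 of SEG). Anln was called higher (0.60), but not with RLE size factors (edgeR adjusted p = 0.0586), without the filter (0.0548), or in 5 of the 6 fits that leave out 1 library of the comparison (up to 0.166, without replicate 3 of SEG). Without both outlying libraries 3 mitosis genes were higher and 8 lower, and 2 replication genes higher and 15 lower; without replicate 2 of SEG 7 replication genes were called, and 2 or 3 mitosis genes without any 1 of the Erg libraries or replicate 2 of SEG.

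Against Sox17 at day 3, SEG had 6 replication genes lower, and 6 mitosis genes lower and 1 higher, where 14.2% of all genes were lower and 14.0% higher. Rrm1 read 144, 142 and 138 CPM with SEG and 238, 249 and 253 with Sox17 (log2 change −0.80 ± 0.08 SE, edgeR adjusted p = 1.09e-07). Fen1 (−0.53), Pola1 (−0.62) and Anln (−0.79) were also lower; leaving out 1 library ended the call of Pola1 in 5 of 6 fits (edgeR adjusted p up to 0.193, without replicate 1 of Sox17) and that of Anln without replicate 1 of Sox17 (0.053) or of SEG (0.054). Cenpe, a kinetochore motor (−0.48), and Aurkb (−0.42) came after Anln in mitosis. The Cenpe call was lost without replicate 1 or 2 of Sox17 (edgeR adjusted p = 0.05 and 0.0507). A fit of only the groups compared gave 11 lower and 2 higher replication genes and 19 lower and 1 higher mitosis genes, and without both outlying libraries it was 12 and 2, and 18 and 1. The mitosis count was 2 to 4 without replicate 1 or 2 of Sox17 or replicate 1 or 3 of SEG.

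At day 7, SEG was below Sox17 in 21 of 23 replication genes and 28 of 29 mitosis genes, where 21.2% of all genes were lower and 18.8% higher, with medians of −0.84 and −0.92. Ccnb1 read 15.1, 17.4 and 17.5 CPM with SEG and 24.2, 34.4 and 37.1 with Sox17 (log2 change −0.94 ± 0.12 SE, edgeR adjusted p = 3.32e-06). Pola1 (−1.78), Mcm5 (−1.16), Cdc6 (−1.12), Birc5 (−1.27), Pbk (−1.26) and Aurkb (−1.20) differed most, and Cdc20 was the mitosis gene that did not pass. A fit of only these 2 groups, in which both outlying libraries take part, called 17 mitosis genes, without Birc5 (edgeR adjusted p = 0.0921). In this comparison alone all 3 same-numbered pairs had correlated deviations (0.396 to 0.69), but replicates 2 and 3 matched across numbers about as well. With the replicate number as a block within these 6 libraries, 19 replication and 27 mitosis genes were called.

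The 3 regulators of the G1/S step were described apart. Ccne2, a cyclin that activates Cdk2 before S phase, read 11.9, 10.1 and 8.96 CPM in control at day 3 and 1.70, 2.0 and 2.62 at day 7 (log2 change −2.27 ± 0.19 SE, edgeR adjusted p = 1.37e-08). At day 7 it was higher with Erg (5.78, 6.95 and 5.33 CPM; log2 change 1.5 ± 0.19 SE, edgeR adjusted p = 1.79e-06), with Sox17 (6.63, 7.39 and 8.47 CPM; log2 change 1.81 ± 0.19 SE, edgeR adjusted p = 7.59e-08) and with SEG (3.30, 3.94 and 4.69 CPM; log2 change 0.91 ± 0.19 SE, edgeR adjusted p = 0.000608). None of these libraries overlapped control. Ccne1, its close relative, read 17.2, 16.8 and 16.3 CPM in control and 23.8, 21.6 and 24.7 with Sox17 at day 3 (log2 change 0.48 ± 0.12 SE, edgeR adjusted p = 0.00336), and 9.49, 8.79 and 9.89 with Erg (log2 change −0.84 ± 0.13 SE, edgeR adjusted p = 1.48e-05). It was higher with Sox17 also at day 7 (1.56) and did not pass with Erg or SEG then. E2f1, the transcription factor that drives S phase genes, moved less than either cyclin between the days in control (−0.48). It read 31, 35.4 and 33 CPM with SEG at day 3 against 44.7, 49.7 and 47.7 in control (log2 change −0.52 ± 0.10 SE, edgeR adjusted p = 0.000267), and was also lower at day 7 (log2 change −0.31 ± 0.10 SE, edgeR adjusted p = 0.0153), a call lost without the filter (edgeR adjusted p = 0.0788), without replicate 2 of control (0.0784) or without replicate 3 of SEG (0.0902). Without both outlying day 7 libraries the number of regulators called went from 1 to 2 for SEG against Erg at day 3, for SEG against Erg at day 7 and for the interaction of SEG with day. It went from 0 to 1 for day 7 against day 3 with Erg and from 0 to 2 with Sox17, all lower at day 7.

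The other genes of the cycle, from lists drawn up beside the 55, moved as follows, with log2 changes in parentheses. Of 40 other mitosis genes 36 were lower and 1 higher with Erg at day 3, where 23.5% of all genes were lower and 22.6% higher, and Gtse1, a spindle gene, was the higher one (0.81), while Kif15 (−2.13) and Kif14 (−1.98) fell furthest. Of 40 other replication genes 24 were lower and 3 higher, led by Tk1 (−1.62), the thymidine kinase. At day 7 Erg had 17 other mitosis genes and 18 other replication genes higher, and 2 of the latter lower (all genes: 23.7% higher, 24.8% lower). With Sox17 at day 7, 32 other mitosis genes were higher, and 31 other replication genes were higher and 1 lower, with Gmnn, the inhibitor of Cdt1 (2.35), and Ccnf (2.54) in front (all genes: 29.5% higher, 25.0% lower). With SEG at day 7, 9 of the 40 other mitosis genes were higher and 2 lower, where 22.5% of all genes were higher and 21.8% lower, so the higher ones stand at the share of all genes. In control 38 other mitosis and 30 other replication genes fell between the days and none rose (all genes: 13.4% fell, 16.1% rose).

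Among 20 cell cycle transcription factors, Foxm1, the activator of mitosis genes, was lower with Erg at day 3 (−1.66), in a list with 10 lower and 1 higher (all genes: 23.5% lower, 22.6% higher). E2f8 (−2.78) and E2f7 (−2.63), repressors that are themselves made in S phase, fell furthest in control between the days. Mybl2 (2.18) and E2f2 (2.19) were higher with Sox17 at day 7, and Mycn was higher with Erg (2.20) and SEG (1.90) then.

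The upstream brakes and D cyclins did not follow one direction. Of the 13 genes of this list, 6 were higher and 2 lower with Erg at day 3, where 22.6% of all genes were higher and 23.5% lower, with Ccnd1, the cyclin of early G1 (1.73), and Cdkn1a, the inhibitor p21 (0.99), among the higher. With Sox17 at day 3, 2 were higher and 6 lower (all genes: 20.8% and 19.6%), and Cdkn1c, another inhibitor (−3.67), and Ccnd1 (−1.97) fell furthest. With SEG at day 3, 6 were lower and none higher (all genes: 20.2% and 20.0%), again with Cdkn1c (−2.26) and Ccnd1 (−1.96) in front. At day 7 Ccnd1 stayed higher with Erg (1.63), and Ccnd2, another D cyclin, was higher with Sox17 (1.22). Of 17 p53 target genes 5 were higher and 1 lower with Erg at day 3, where 22.6% of all genes were higher, so the higher ones stand near the share of all genes. With Sox17 at day 3, 8 were higher and 1 lower (all genes: 20.8% and 19.6%). With SEG at day 3, 7 were higher and 3 lower (all genes: 20.0% and 20.2%). At day 7, 5 were higher and 4 lower with Erg (all genes: 23.7% and 24.8%). With SEG it was 6 and 2 then (all genes: 22.5% and 21.8%). With Sox17 at day 7, 10 were higher and 3 lower, where 29.5% of all genes were higher and 25.0% lower.

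Some of the 55 genes share exon bases with a gene on the opposite strand, and no source used here gives the strand setting of the counting, so those reads cannot be told apart. The longest overlaps on GENCODE's mm10 annotation are 2758 bases of Gins2 with Gse1, 1909 of Fen1 with Gm10143, 1271 of Kif20a with Cdc23, 911 of Prc1 with Rccd1 and 609 of Ccne2 with Ints8. Among the genes named most here, Mcm5 lies at chr8:75109569-75128439 on the plus strand, Pcna at chr2:132249162-132253314 on the minus strand, Rrm2 at chr12:24708241-24714146 on the plus strand, Ccna2 at chr3:36564865-36572150 on the minus strand, Mki67 at chr7:135689784-135716361 on the minus strand, Cdc20 at chr4:118432901-118437352 on the minus strand and Bub1b at chr2:118598211-118641591 on the plus strand, in the same build.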

How the data were processed

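RNA was measured by messenger RNA sequencing of 24 libraries. The authors deposited whole-number counts per gene, not normalized; per the submitters' processing notes Salmon, DESeq2 and mm10 were named, with no version, role or strand setting given in the sources used here. The 55 genes, their classes and all lists were chosen with earlier results of these data known. Fits were run in edgeR 4.0.16 under R 4.3.3 (limma 3.58.1 loaded). Genes passing filterByExpr (minimum count 10, 14804 genes) were scaled by TMM and fitted with 8 group means over all 24 libraries; 17 comparisons were tested 2-sided by the quasi-likelihood test, with Benjamini-Hochberg adjustment over all genes and 0.05 as threshold. Fitted log2 changes carry a prior count of 0.125. Each SE is the absolute log2 change divided by the square root of the quasi-likelihood F statistic. The tests were tried on simulated data with planted changes and no outlying libraries. That trial does not cover the spread that the outlying pair adds. Figures and tables were made in Python 3.11.15 with pandas 2.3.3, scipy 1.17.1 and matplotlib 3.10.9. Exon lengths and overlaps are from GENCODE's annotation of mm10.

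Values in every library were set to be given for a fixed group of 20 genes; those with the 3 largest rises and falls in a class, and called members against the majority of their class, could be named, with up to 2 of each direction from every other list. Members outside this rule were chosen after their values were seen. Promoters are from RefSeq. Alternatives were RLE size factors, no filter, a replicate block, DESeq2 1.42.0, a fit restricted to the groups compared, and leaving out each library; leaving out both outlying day 7 libraries, and a replicate block within SEG and Sox17 at day 7, were chosen after seeing the data. Same-numbered libraries had a median correlation of deviations of 0.003 over 84 pairs. In SEG against Sox17 at day 7 alone, all 3 pairs were over 0.1 (0.396 to 0.69). Replicates 2 and 3 matched across numbers about as well. Sox17 replicate 2 had 0.39 with SEG replicate 3, and Sox17 replicate 3 had 0.418 with SEG replicate 2. The values thus set the replicate 1 libraries apart and do not pair replicates 2 and 3 by number, and the labels state no pairing.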

Additional observations from a re-analysis of the deposited data

Results flagged for a closer look

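These results stand here because the effect of a factor against control differed between day 3 and day 7 by a test of the difference itself (edgeR's quasi-likelihood test of the interaction, Benjamini-Hochberg adjusted). All changes are upwards, and all 3 conditions share the control libraries, in which each of the 55 genes fell between the days. Each change of an effect therefore holds the control's own fall as well as any change in the factor cells. Of all genes 9.34% changed upwards and 10.4% downwards for Erg. The shares were 7.61% and 6.66% for Sox17, and 6.09% and 5.77% for SEG. For Erg, 23 replication genes, 3 G1/S regulators and 29 mitosis genes were called, with log2 changes of 2.49 in Mcm10, 2.04 in Rrm2, 1.91 in Mcm5, 2.61 in Pbk, 2.48 in Ccna2 and 2.32 in Aurka. For Sox17, 21 replication genes, 2 regulators and 29 mitosis genes were called, with 2.01 in Mcm5, 1.93 in Rrm2, 1.89 in Cdc45, 2.23 in Pbk, 2.16 in Birc5 and 1.93 in Ccna2. For SEG, 13 replication genes, 1 regulator (2 without both outlying day 7 libraries) and 19 mitosis genes were called, with 1.45 in Rrm2, 1.14 in Cdc45, 1.06 in Mcm5, 1.31 in Ccna2, 1.24 in Pbk and 1.17 in Cdc20.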

How the results depend on the processing

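No count of called genes reversed its direction under any alternative. Counts of called replication and mitosis genes, in both directions together, moved by over 1.5 times as follows; the cause was not tested. In a fit restricted to the compared groups they were 14 replication and 17 mitosis genes (Sox17 against control, day 3), 18 and 27 (SEG against control, day 3), 13 and 20 (SEG against Sox17, day 3), 17 mitosis genes (SEG against Sox17, day 7), 4 mitosis genes (day 7 against day 3, Erg), and 0 and 3 (day 7 against day 3, Sox17). Without both outlying day 7 libraries they were 17 mitosis genes (Sox17 against control, day 3), 25 mitosis genes (SEG against control, day 3), 15 replication genes (SEG against control, day 7), 14 and 19 (SEG against Sox17, day 3), 17 and 11 (SEG against Erg, day 7), 13 and 4 (day 7 against day 3, Erg) and 17 replication genes (day 7 against day 3, Sox17). With no filter on low counts they were 4 mitosis genes (Sox17 against control, day 3), 2 mitosis genes (SEG against Erg, day 7) and 5 replication genes (day 7 against day 3, Sox17). DESeq2 gave 8 mitosis genes (SEG against Erg, day 7) and 1 (day 7 against day 3, Erg). RLE size factors moved none of the 34 counts of replication and mitosis genes past 1.5 times.

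Leaving out 1 library at a time gave 5 to 7 mitosis genes (Sox17 against control, day 3), 7 to 9 replication genes (SEG against control, day 3), 2 to 6 mitosis genes (SEG against Sox17, day 3), 7 to 11 replication and 2 to 5 mitosis genes (SEG against Erg, day 7), 0 to 2 mitosis genes (day 7 against day 3, Erg) and 5 to 13 replication genes (day 7 against day 3, Sox17). A replicate block over all libraries moved none of the 34 counts past 1.5 times; for SEG against Sox17 at day 7 it called 21 replication and 28 mitosis genes, and 19 and 27 within those 6 libraries alone. Of the counts of the 3 G1/S regulators, 14 moved past 1.5 times, each by 1 or 2 genes. Those for SEG against Erg were 2 at day 3 in the restricted fit and 2 at each day without both outlying libraries, and 2 at day 7 with RLE size factors or DESeq2. For SEG against control at day 7 the count was 1 with no filter on low counts. Between the days it was 1 with Erg in the restricted fit, and without both outlying libraries 1 with Erg and 2 with Sox17, and 2 for the change of the SEG effect. Leaving out 1 library gave 1 to 2 (SEG against control, day 7, and SEG against Erg, day 7) and 0 to 1 (day 7 against day 3, Sox17). Of the class medians, 39 moved by more than the spread between replicates, 34 on leaving out 1 library and 5 without both outlying libraries, and none of these changed sign. One of them moved by over 1.5 times, that of the replication genes for Sox17 against control at day 3, from −0.16 to −0.26 without replicate 3 of control at day 3. Of 24 libraries, 9 lay closest on average to their own number.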
